A study of Mus musculus with 5 samples.

Results

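Cd160, its partner HVEM (the gene Tnfrsf14) and 8 further receptor genes were followed across 5 RNA libraries from mouse natural killer (NK) cells of the spleen. The 10 genes are Cd160 and Btla, which encode receptors that bind HVEM, Tnfrsf14 itself, and Cd27, Tnfrsf1b, Tnfrsf4, Tnfrsf9, Tnfrsf18, Tnfrsf25 and Fas, which encode other receptors of the tumour necrosis factor (TNF) receptor family. They were chosen by function, with earlier results of the Fli1 KO against NTC contrast known, in which Cd160 was lower, so every value of that contrast is given here for these genes as a description. Each was found once among the 56691 genes listed, and all 10 had enough counts to enter the fit over 30580 genes. In 3 libraries, labelled Fli1 KO, the cells had been edited with CRISPR at Fli1, the gene of an ETS family transcription factor, and in 2 libraries, labelled NTC, they were the control of that editing. All were splenic NK cells of Mus musculus. The labels give no strain, age, culture condition, guide sequence or number of animals, and do not say whether numbered replicates are separate animals, so the p-values cover the spread among these libraries only, which may be technical.

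HVEM is a TNF receptor that sits at the centre of a small network: it is bound by the TNF family cytokines LIGHT (Tnfsf14) and lymphotoxin alpha (Lta), and also by BTLA and CD160, which are members of the immunoglobulin superfamily. BTLA recruits phosphatases and inhibits the cell that carries it, while CD160, a glycolipid-anchored receptor of NK cells and cytotoxic T cells, also binds MHC class I and can trigger cytokine release. The remaining receptors pass signals from TNF family ligands through TRAF adaptors to NF-kappaB, with the exception of Fas, whose death domain recruits FADD and caspase-8; Tnfrsf25 (DR3) carries a death domain as well.

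The stretches upstream of the start of Cd160, Tnfrsf9 and Tnfsf14 are shown because Cd160 and Tnfsf14 are the HVEM-binding genes that were lower in Fli1 KO, and Tnfrsf9 is the receptor gene with the highest level, while the edited gene Fli1 encodes an ETS factor, a class that recognises DNA around the core GGAA. They are the 250 bases before a RefSeq start on GRCm38.p6, 5′ to 3′ on the strand of the gene, and capitals mark GGAA or its reverse complement TTCC. That of Cd160 is chr3:96814522-96814771 on the minus strand and lies before the downstream of 2 annotated starts. That of Tnfrsf9 is chr4:150919905-150920154 on the plus strand, before the upstream of 2 RefSeq starts. It lies inside the annotated Tnfrsf9 gene, which begins at 150914562. That of Tnfsf14 is chr17:57194182-57194431 on the minus strand.
Cd160: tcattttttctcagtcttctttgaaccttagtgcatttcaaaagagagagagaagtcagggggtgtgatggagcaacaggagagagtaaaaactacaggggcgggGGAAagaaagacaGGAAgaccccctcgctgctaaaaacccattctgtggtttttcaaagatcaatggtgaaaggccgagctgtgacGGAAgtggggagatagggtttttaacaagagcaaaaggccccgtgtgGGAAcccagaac
Tnfrsf9: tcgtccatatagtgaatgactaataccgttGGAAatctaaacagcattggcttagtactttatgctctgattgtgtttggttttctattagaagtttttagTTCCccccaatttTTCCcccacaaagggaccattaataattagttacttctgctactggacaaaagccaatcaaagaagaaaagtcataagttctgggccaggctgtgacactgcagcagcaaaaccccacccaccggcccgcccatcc
Tnfsf14: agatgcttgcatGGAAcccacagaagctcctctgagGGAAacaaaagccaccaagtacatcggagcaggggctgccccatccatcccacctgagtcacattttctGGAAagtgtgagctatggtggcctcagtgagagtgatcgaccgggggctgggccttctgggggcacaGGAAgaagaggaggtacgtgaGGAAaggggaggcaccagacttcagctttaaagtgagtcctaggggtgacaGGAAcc

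The core occurs 4 times before Cd160, 3 times before Tnfrsf9 and 6 times before Tnfsf14. It is too short to set them apart, since 93.4% of 32851 RefSeq promoter windows of the same length hold it on either strand, with a median of 3 matches. A longer form, CGGAAG, which contains GGAA and was chosen after the Cd160 sequence was seen, lies 54 bases before the downstream Cd160 start. It was found on either strand in 5 of the 13 windows of the 10 genes (of Btla, Cd160, Tnfrsf1b and Tnfrsf25) and in 13.6% of all windows. The window of the other Cd160 start held 3 matches of GGAA and 0 of CGGAAG. That of the other Tnfrsf9 start, further downstream, held 4 and 0. These are matches of letters, not measured binding.

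The libraries held 4718390 to 5643791 counts. Levels are given as CPM, each count relative to the total of its library after TMM scaling. As a background, the density of counts over exons of 1453 olfactory and vomeronasal receptor genes was taken, 1.39 to 1.78 CPM per kb, and scaled to each gene's exon length; whether it holds for all genes in these probe-capture libraries was not tested. Fli1 RNA was at 390, 320 and 361 CPM in Fli1 KO and at 322 and 279 CPM in NTC, and these ranges overlapped; a count over a whole gene does not check an edit whose position is not given here. All 12 NK cell markers examined lay over 3 times background, among them Ncr1, Klrb1c and Eomes, as did 7 of 45 markers of other cells. None of 8 T cell markers, 8 B cell markers or 5 dendritic cell markers was among the 7.

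Cd160 was the one gene of the 10 that fell past the threshold used, an adjusted p under 0.05 (edgeR quasi-likelihood test, Benjamini-Hochberg over all genes tested), as did 0.0883% of all genes. Its gene, ENSMUSG00000038304, lies on chromosome 3 of GRCm38 from 96798763 to 96829351. It stood at 41.1 and 54.3 CPM in NTC 1 and NTC 2 and at 23.6, 19.3 and 18.5 CPM in Fli1 KO 1 to 3. Every Fli1 KO library was thus below both NTC libraries, and the 3 lay close together. Cd160 averaged 47.7 ± 9.35 CPM in NTC (SD, n = 2) and 20.5 ± 2.74 CPM in Fli1 KO (SD, n = 3), which is 2.33-fold lower. The fitted log2 fold change was −1.22 with an SE of 0.16 (edgeR adjusted p = 2.5e-04). The counts behind these levels were 237 and 260 in NTC and 92 to 117 in Fli1 KO. Even in Fli1 KO the level stayed well above the 4.15 CPM of background expected for its exon length. In bulk RNA, fewer cells with Cd160 and less Cd160 RNA per cell cannot be told apart. The Cd160 call held with any 1 library left out, at log2 fold changes of −1.39 (without NTC 1) to −0.999 (without NTC 2). Its exons share 68 of 2642 bases with those of Pdzk1 on the opposite strand, which was near background (1.12 times), and the strand setting of the counting was not given in the sources used here.

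**Figure D1:**
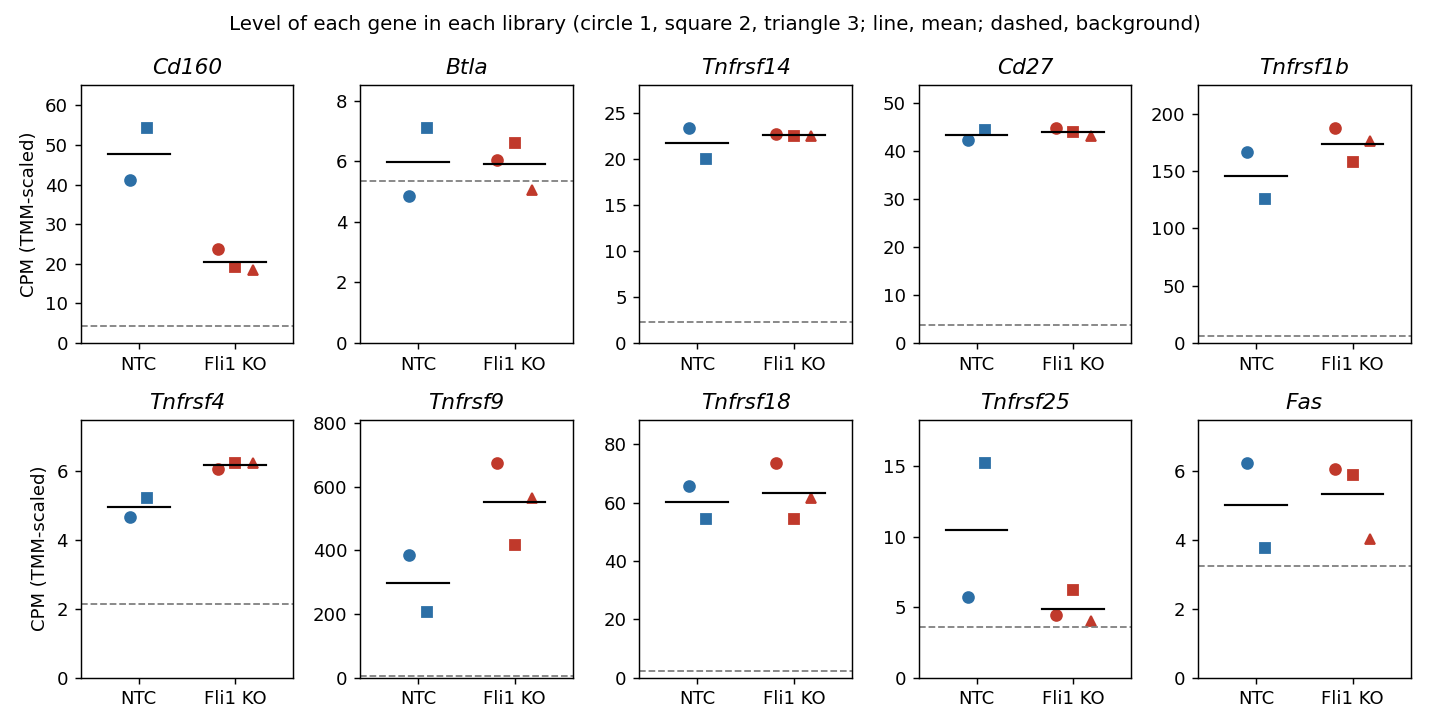
Level of each of the 10 genes (CPM, each panel with its own axis from 0) in the 2 NTC libraries (blue) and the 3 Fli1 KO libraries (red); lines are group means and dashed lines the background for the gene's exon length. Cd160 is lower in all 3 Fli1 KO libraries (18.5 to 23.6 CPM) than in NTC (41.1 and 54.3 CPM), while Tnfrsf14 and Cd27 lie within narrow ranges in all 5.

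Tnfrsf14, the gene of HVEM (ENSMUSG00000042333, chromosome 4, 154921933 to 154928563), did not follow Cd160. It stood at 23.4 and 20.1 CPM in NTC and at 22.8, 22.5 and 22.6 CPM in Fli1 KO. The Fli1 KO values lay between those of the NTC libraries, with a log2 fold change of 0.05 (SE 0.16). The ratio of Cd160 to Tnfrsf14, both per kb of exon, is free of any scaling between libraries. It was 0.956 and 1.47 in NTC, and 0.564, 0.467 and 0.447 in Fli1 KO. Cd160 counts per kb were thus close to those of its partner in NTC 1, above them in NTC 2 and below them in every edited library. Whether counts per kb of different genes compare as RNA amounts in these probe-capture libraries was not tested.

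Btla, the inhibitory receptor of the network (ENSMUSG00000052013, chromosome 16, 45224315 to 45257670), could not be told from background. Its 4.85 and 7.10 CPM in NTC and 6.05, 6.60 and 5.04 CPM in Fli1 KO compare with 5.33 CPM expected from its exon length, a mean of 1.11 times background. On 25 to 37 counts per library the log2 fold change was 0.00 (SE 0.27), too wide to show a small change. At the level of background a fall in Btla could not be seen. The 8 markers of B cells, which are known to carry BTLA, lay at 0.691 to 1.14 times background.

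Of the soluble or membrane-bound ligands of HVEM, Tnfsf14 (LIGHT) fell and Lta was near background (1.91 to 4.18 CPM over the 5 libraries). Tnfsf14 stood at 22.2 and 21.3 CPM in NTC and at 8.47, 10.9 and 12.9 CPM in Fli1 KO. The groups did not overlap, and the edited mean was 2.02-fold lower. The log2 fold change was −1.02 with an SE of 0.19 (edgeR adjusted p = 0.0103). Without Fli1 KO 1 this call ended (−0.87, adjusted p = 0.181). Relative to Tnfrsf14, per kb, Tnfsf14 was at 0.738 and 0.827 in NTC and at 0.289, 0.377 and 0.445 in Fli1 KO. Cd160 and Tnfsf14 were picked with the contrast known, so no pattern of the HVEM network is read from their calls.

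**Figure D2:**
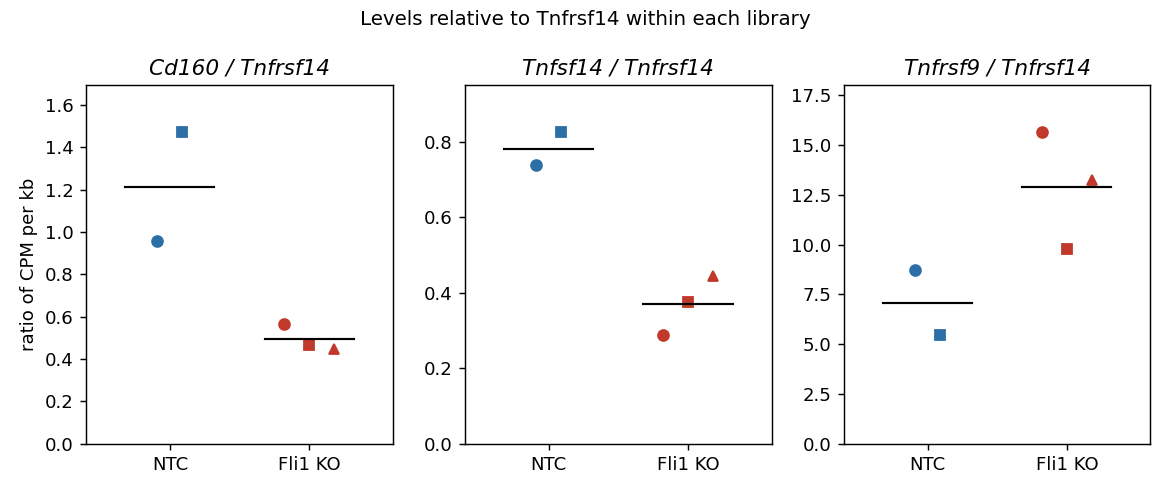
Ratios of CPM per kb of exon within each library, of Cd160, Tnfsf14 and Tnfrsf9 to Tnfrsf14 (axes from 0; lines, group means; circle, square and triangle are replicates 1 to 3). The Cd160 and Tnfsf14 ratios are lower in each Fli1 KO library than in either NTC library, and the Tnfrsf9 ratio is higher.

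Tnfrsf9, which encodes 4-1BB (CD137), a costimulatory receptor that NK cells gain on activation (ENSMUSG00000028965, chromosome 4, 150914562 to 150946102), had the highest level of the 10 genes and the largest positive difference. It stood at 386 and 207 CPM in NTC and at 676, 416 and 565 CPM in Fli1 KO. The lowest Fli1 KO library was only just above NTC 1, and the 2 NTC libraries differed widely from each other. The group means were 297 ± 126 CPM in NTC (SD, n = 2) and 553 ± 130 CPM in Fli1 KO (SD, n = 3). The log2 fold change of 0.90 (SE 0.30) did not pass the threshold (edgeR adjusted p = 0.431). It was 1.43 without NTC 1 and 0.52 without NTC 2. The first of these was called (adjusted p = 1.6e-10), but with a single NTC library left the spread comes from the Fli1 KO libraries alone. The summed level of the 12 NK markers was 7778 to 10971 CPM in Fli1 KO against 8043 CPM in NTC 1 and 5773 CPM in NTC 2. Granzyme A (Gzma) made up much of it, at means of 4052 CPM in Fli1 KO and 2736 CPM in NTC. Il2rb (1971 and 1398 CPM) and perforin (Prf1, 1345 and 737 CPM) came next. Of the 12, 7 had a positive log2 fold change and 5 a negative one, beside 14553 and 16027 of all genes tested. Among the 7603 genes that, like these 12, lay over 3 times background, 5363 were positive and 2240 negative. The sum thus does not speak for the whole list. The part of these genes in the Tnfrsf9 difference was not tested. Per kb, Tnfrsf9 was 8.71 and 5.46 times Tnfrsf14 in NTC and 15.7, 9.79 and 13.2 times in Fli1 KO. Its ligand gene Tnfsf9 lay under 3 times background at 3.13 to 7.67 CPM (adjusted p = 0.639).

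The other receptors with levels clearly above background showed small differences. Tnfrsf1b, the gene of TNF receptor 2, the TNF receptor without a death domain (ENSMUSG00000028599, chromosome 4, 145213463 to 145246870), was at 166 and 125 CPM in NTC and at 187, 158 and 176 CPM in Fli1 KO. NTC 1 lay among the Fli1 KO libraries and NTC 2 below them, for a log2 fold change of 0.25 (SE 0.15, edgeR adjusted p = 0.649) that was 0.49 without NTC 1 and 0.07 without NTC 2. Cd27, the CD70 receptor found on less mature NK cells of the mouse (ENSMUSG00000030336, chromosome 6, 125232622 to 125237010), had the narrowest range of the 10 relative to its level. It stood at 42.3 and 44.3 CPM in NTC and at 44.8, 43.9 and 43.1 CPM in Fli1 KO. These values overlapped, and the log2 fold change was 0.02 with an SE of 0.14. Tnfrsf18, the gene of the costimulatory receptor GITR (ENSMUSG00000041954, chromosome 4, 156026164 to 156028895), was at 65.7 and 54.3 CPM in NTC and at 73.6, 54.4 and 61.7 CPM in Fli1 KO. These ranges overlapped (log2 fold change 0.07, SE 0.15). Of its 1524 exon bases, 414 are shared with Gm16008, an antisense transcript, so reads of the 2 could be mixed if counting ignored strand; Gm16008 itself was assigned only 2.50 CPM on average.

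Tnfrsf25 (DR3), the receptor of TL1A, which is carried mainly by T cells and innate lymphoid cells (ENSMUSG00000024793, chromosome 4, 152115934 to 152120119), was set by 1 library. It stood at 15.2 CPM in NTC 2 and at 5.72 CPM in NTC 1, with 4.44, 6.24 and 4.03 CPM in Fli1 KO. NTC 1 lay within the Fli1 KO range, and apart from NTC 2 all values were close to the background of 3.58 CPM. The log2 fold change of −1.04 (SE 0.37, edgeR adjusted p = 0.373) became −0.20 without NTC 2 and −1.60 without NTC 1 (adjusted p = 6.2e-06, again with 1 NTC library left). In the same NTC 2 library Il7r, the gene of the interleukin-7 receptor, was at 117 CPM against 20.1 to 25.3 CPM in the other 4, and Rora at 207 against 95.7 to 102 CPM. A further marker of innate lymphoid cells that NK cells also carry, Tnfsf10 (TRAIL), was high in both controls, at 67.6 CPM in NTC 1 and 72.1 CPM in NTC 2 against 39.4 to 42.7 CPM in Fli1 KO, and was called lower (log2 fold change −0.76, edgeR adjusted p = 0.00551). With Fli1 KO 1 left out this call ended, as the lowest edgeR adjusted p among the innate lymphoid cell markers was then 0.0905. Of the 7 markers on that list, 6 had a negative log2 fold change with all 5 libraries, as had 16027 of all 30580 genes tested. The 4 of them over 3 times background were all negative, as were 2240 of the 7603 genes at that level. The list median was −0.49 with all 5 libraries and −0.01 without NTC 2. Summed, the 7, which include these 3 genes, reached 490 CPM in NTC 2 against 261 CPM in NTC 1 and 232 to 241 CPM in Fli1 KO, and 4 of the 7 lay over 3 times background. The 4 regulatory T cell markers summed to 179 CPM in NTC 2 and 109 CPM in NTC 1, and to 116 to 128 CPM in Fli1 KO. Their defining gene Foxp3 was at 0.717 times background. Ikzf2 was at 113 CPM in NTC 2 and 63.6 CPM in NTC 1, and Il2ra at 34.1 and 22.2 CPM. Ctla4 went the other way, at 29.6 to 39.7 CPM in Fli1 KO against 19.9 CPM in NTC 1 and 26.3 CPM in NTC 2. The 8 T cell markers summed to 57.7 and 61.2 CPM in NTC and 58.2 to 64.4 CPM in Fli1 KO, near their summed background of 49.0 CPM. Of these, Cd3d and Cd3g were at 2.67 and 2.61 times background. Cd3g was at 12.7 to 20.2 CPM in Fli1 KO against 11.8 CPM in NTC 1 and 9.61 CPM in NTC 2 (log2 fold change 0.50, edgeR adjusted p = 0.518). Of the 8, 3 had a positive log2 fold change and 5 a negative one, beside 14553 and 16027 of all genes tested. No marker of these lists was at 0 in all 5 libraries. The part of such cells in the Tnfrsf25 or Cd160 values was not tested.

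Tnfrsf4 and Fas were low. Tnfrsf4, the gene of the costimulatory receptor OX40 (ENSMUSG00000029075, chromosome 4, 156013843 to 156016612), stood at 4.68 and 5.22 CPM in NTC and at 6.05, 6.24 and 6.25 CPM in Fli1 KO. The groups did not overlap, but the difference rests on 25 to 35 counts per library (log2 fold change 0.32, SE 0.26, edgeR adjusted p = 0.778). Its mean was 2.65 times background. Fas, the gene of the death receptor (ENSMUSG00000024778, chromosome 19, 34290666 to 34327772), stood at 6.24 and 3.76 CPM in NTC and at 6.05, 5.89 and 4.03 CPM in Fli1 KO, which overlap, at 1.60 times background. Fasl, the gene of its ligand and a weapon of NK cells, had far higher counts, at 78.4 and 73.3 CPM in NTC and at 125, 103 and 115 CPM in Fli1 KO. The Fasl groups did not overlap, yet the log2 fold change of 0.59 (SE 0.14) missed the threshold (edgeR adjusted p = 0.0534). It was called by DESeq2 (0.61, adjusted p = 0.0452) and by limma-voom (0.59, adjusted p = 0.0457), and not with library size alone as the scaling (0.46, adjusted p = 0.163). Of the 13 alternatives, 8 called Fasl. It was not called with DESeq2 size factors in edgeR (0.61, edgeR adjusted p = 0.0607). Nor was it without Fli1 KO 1 (0.53, edgeR adjusted p = 0.403), without Fli1 KO 3 (0.61, edgeR adjusted p = 0.407) or without NTC 2 (0.55).

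Counted over the set, 1 of 10 genes was called lower and 0 higher, where 0.0883% of all genes tested were called lower and 0.458% higher. At an unadjusted p under 0.05 there were 1 higher (Tnfrsf9) and 2 lower (Cd160 and Tnfrsf25), against 5.23% higher and 3.71% lower of all genes tested. DESeq2 and limma-voom each called 1 lower and 0 higher, where DESeq2 gave Btla, Tnfrsf4, Tnfrsf25 and Fas no adjusted p. Groups that do not overlap were seen for 2 genes higher in Fli1 KO (Tnfrsf4 and Tnfrsf9) and for 1 lower, against 11.9% and 13.7% of all genes tested. Of the 6 members over 3 times background, 1 was higher and 1 lower without overlap, and 0 were called higher and 1 lower. Among all 7603 genes at that level, 2000 were higher and 593 lower without overlap, and 130 were called higher and 22 lower. The median log2 fold change of the 10 was 0.06, beside −0.02 over all genes tested and 0.11 over the 7603 that lay over 3 times background. Since the contrast was known when the genes were chosen, nothing is read from these counts. With library size as the only scaling, the all-gene median shifted by −0.13, which turned the sign of Btla, Tnfrsf14, Cd27, Tnfrsf18 and Fas; none of these 5 has a direction here.

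**Figure D3:**
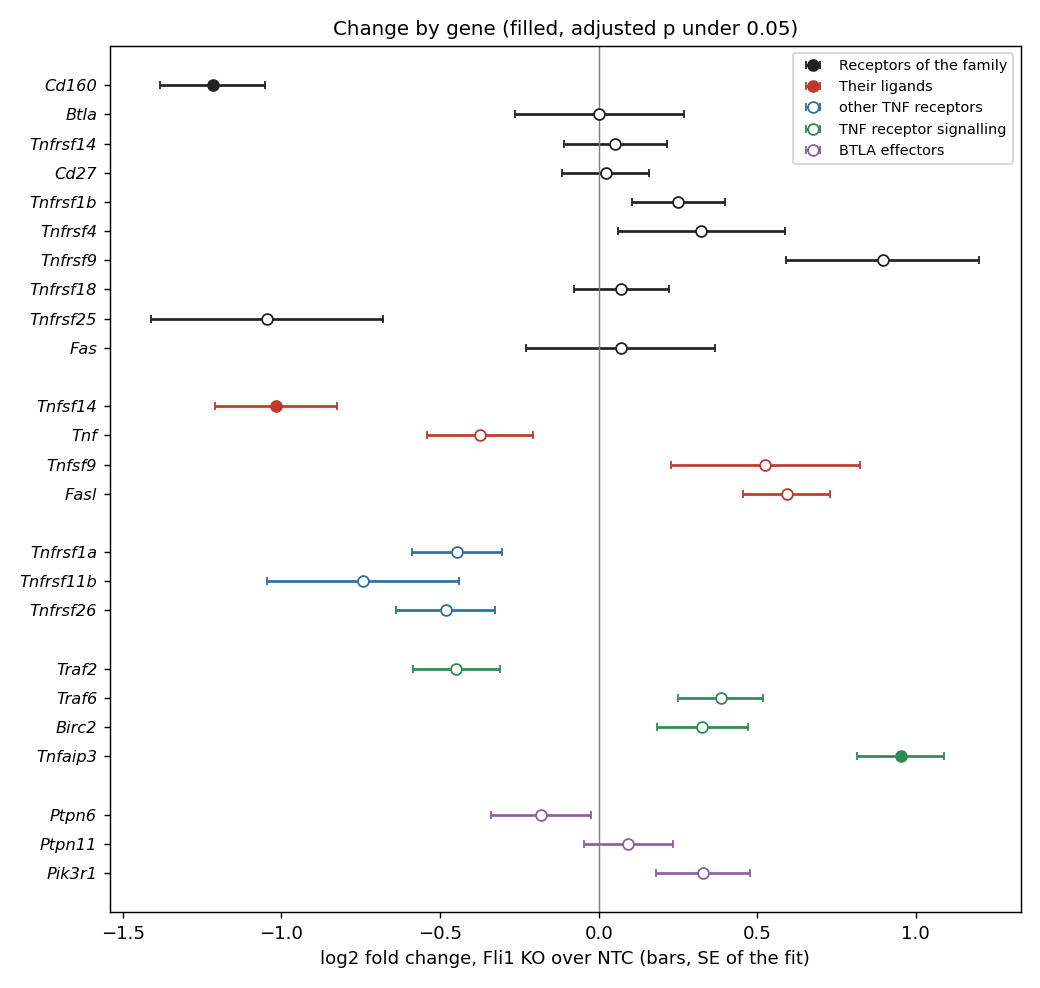
Log2 fold change of Fli1 KO over NTC with the SE of the fit, for the 10 receptor genes (black) and the named genes of their ligands, other TNF receptors, signalling proteins and BTLA effectors; filled points have an adjusted p under 0.05. Cd160 (−1.22), Tnfsf14 (−1.02) and Tnfaip3 (0.95) are the filled points.

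Levels of different genes were compared per kb of exon, as means over the 5 libraries. The part of probe capture in their order was not tested, so the order is one of counts. Tnfrsf9 led at 165 CPM per kb, followed by Tnfrsf1b at 42.6 and Tnfrsf18 at 40.6, whose ranges over libraries overlapped. Cd27 (18.8), Tnfrsf14 (15.5) and Cd160 (11.9) formed a middle group; the range of Cd27 lay above that of Tnfrsf14, while Cd160 spanned 7.02 to 20.6 and so overlapped Tnfrsf14. In NTC Cd160 (18.1 CPM per kb) was near Cd27 (18.6), and in Fli1 KO it was at 7.75. Tnfrsf4 (4.17), Tnfrsf25 (3.13), Fas (2.52) and Btla (1.75) came last, each overlapping the next, and lay under 3 times the background of 1.57 CPM per kb.

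**Figure D4:**
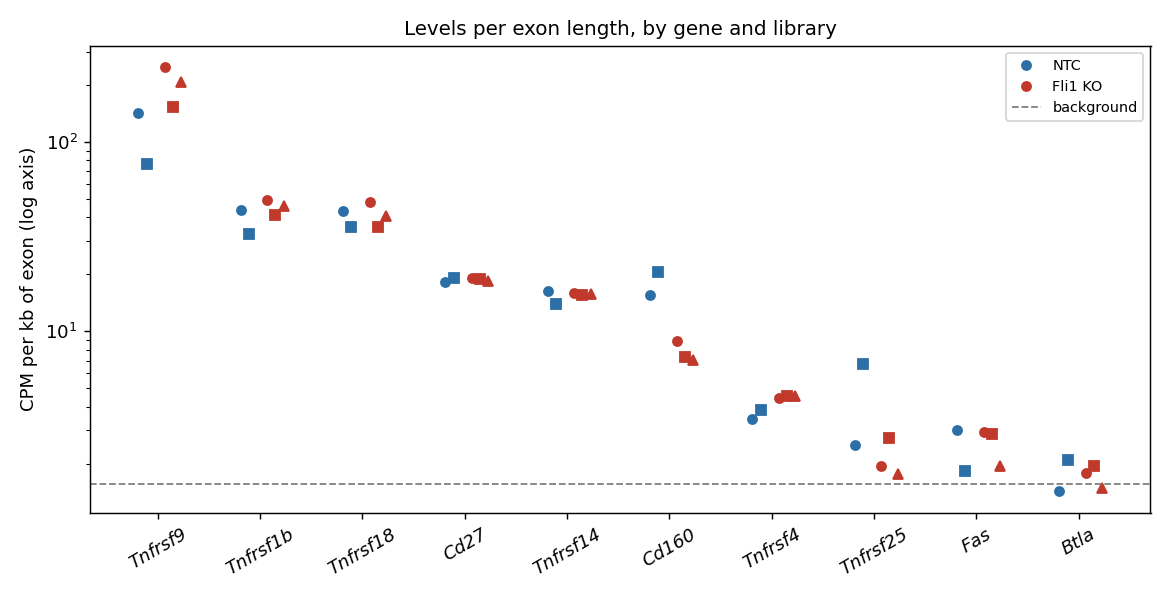
CPM per kb of exon on a log axis for each gene and library (blue, NTC; red, Fli1 KO; circle, square and triangle are replicates 1 to 3), ordered by mean; the dashed line is the background. Tnfrsf9 lies above all others at 76.1 to 248 CPM per kb. Tnfrsf4, Tnfrsf25, Fas and Btla have means under 3 times background, with Tnfrsf4 at 3.43 to 4.58 CPM per kb and Tnfrsf25 at 6.70 CPM per kb in NTC 2.

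The wider pathway was read from 4 further lists. Their counts at an unadjusted p under 0.05 stand against the same 5.23% higher and 3.71% lower over all genes tested, and nothing particular to a list is read from them. Of 8 tested ligand genes of the receptors, Tnfsf14 was called lower and 0 higher by edgeR (1 higher and 2 lower at an unadjusted p under 0.05, and 1 higher, Fasl, by both DESeq2 and limma-voom), with a median log2 fold change of 0.02. Tnf, the founding cytokine of the family, was at 27.6 ± 4.97 CPM (SD, n = 2) in NTC and 21.2 ± 1.75 CPM (SD, n = 3) in Fli1 KO (edgeR adjusted p = 0.509). Cd70, the CD27 ligand gene, had too few counts to be tested (1.01 to 1.82 CPM).

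Among 19 other tested TNF receptor genes edgeR called 0 (0 higher and 3 lower at an unadjusted p under 0.05, and 0 by DESeq2 and by limma-voom). Their median was −0.25, but only 3 lay over 3 times background. The smallest p belonged to Tnfrsf1a, the gene of the death-domain TNF receptor 1, which stood at 53.2 ± 1.71 CPM (SD, n = 2) in NTC and 39.1 ± 4.46 CPM (SD, n = 3) after editing, a log2 difference of −0.45 (edgeR adjusted p = 0.253). It therefore lay opposite in sign to Tnfrsf1b, the other receptor of TNF, although neither passed the threshold and the difference between them was not tested. Tnfrsf26, a mouse receptor of the decoy cluster on chromosome 7, was at 39.6 ± 7.88 CPM (SD, n = 2) and 28.2 ± 0.538 CPM (SD, n = 3) (−0.48, edgeR adjusted p = 0.263). It was called only without NTC 1 (−0.66, adjusted p = 0.0275) and with the replicate number in the model. Tnfrsf11b, the gene of the soluble receptor osteoprotegerin, was at background (0.964 times).

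Of 19 signalling genes downstream of the receptors, 17 lay over 3 times background. Tnfaip3, the gene of A20, a ubiquitin-editing enzyme that NF-kappaB induces and that shuts TNF receptor signalling off, rose 1.94-fold. It stood at 127 and 133 CPM in NTC and at 268, 230 and 258 CPM in Fli1 KO, so the groups lay far apart. Its log2 fold change was 0.95 with an SE of 0.14 (edgeR adjusted p = 5.8e-04), and the call held with any 1 library left out (0.92 to 1.03). It was the only one of the 19 called (4 higher and 2 lower at an unadjusted p under 0.05), with a list median of −0.01. Traf2, an adaptor shared by TNF receptor 2, 4-1BB, OX40 and HVEM, was at 54.9 ± 2.84 CPM (SD, n = 2) in NTC and 40.2 ± 2.06 CPM (SD, n = 3) in Fli1 KO (−0.45, edgeR adjusted p = 0.226). Traf6 (0.38, adjusted p = 0.330) and Birc2, the gene of the ubiquitin ligase cIAP1 (0.33, adjusted p = 0.495), were on the other side, and none of these 3 passed the threshold. With the replicate number as a block in the model Traf2 and Traf6 were called (−0.42 and 0.39, edgeR adjusted p = 0.0443 and 0.0392). Of 4 genes of proteins that bind the BTLA tail edgeR called 0 (1 higher and 0 lower at an unadjusted p under 0.05, and 0 by DESeq2 and by limma-voom). They were Ptpn6 and Ptpn11, the phosphatases SHP-1 and SHP-2, at log2 fold changes of −0.18 and 0.09, Grb2 at 0.06, and Pik3r1, a PI3 kinase subunit, at 0.33 (adjusted p = 0.508). The signs of Ptpn6, Ptpn11 and Grb2 turned under other settings, so they have no direction here.

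The 5 genes whose profile over the 5 libraries was nearest to that of Cd160, by the root mean square difference of mean-centred log2 CPM among 14549 genes, were Adgrg5, Lpar6, Asb2, Tgtp2 and Sgsh (differences of 0.18 to 0.21 on the log2 scale). That each was lower in Fli1 KO and highest in NTC 2 follows from this choice, so their log2 fold changes and calls are descriptions only. Adgrg5, an adhesion G protein-coupled receptor gene, stood at 38.7 and 60.6 CPM in NTC and at 30.1, 23.2 and 25.4 CPM in Fli1 KO. Lpar6, the gene of a lysophosphatidic acid receptor, stood at 49.6 and 70.2 CPM in NTC and at 34.1, 29.3 and 33.5 CPM in Fli1 KO. Asb2, the gene of a ubiquitin ligase subunit, stood at 139 and 228 CPM in NTC and at 111, 95.2 and 91.3 CPM in Fli1 KO. Sgsh, the gene of a lysosomal sulfatase, and Tgtp2, an interferon-inducible GTPase gene with a near-identical copy that makes its count uncertain, had log2 fold changes of −0.98 and −0.87. The log2 fold changes of the 5 ran from −0.98 to −0.87 against −1.22 for Cd160, and 4 of them were called lower, all but Tgtp2 (edgeR adjusted p = 0.0731). The 4 calls were lost without some libraries. Without NTC 2 the log2 fold changes were smaller, at −0.56 for Adgrg5, −0.61 for Lpar6 and −0.48 for Asb2 (edgeR adjusted p = 0.322, 0.159 and 0.338). Without Fli1 KO 1 the calls ended for all 4, although the log2 fold changes stayed at −1.02 (Adgrg5), −0.92 (Lpar6), −0.97 (Asb2) and −0.92 (Sgsh), with edgeR adjusted p-values of 0.0941, 0.0911, 0.110 and 0.0781. Without Fli1 KO 3 they were at −0.88, −0.90, −0.82 and −0.95 in the same order (edgeR adjusted p = 0.197, 0.0978, 0.256 and 0.0548). Without Fli1 KO 2 the calls of Adgrg5 (−0.81) and Asb2 (−0.84) ended (edgeR adjusted p = 0.0710 and 0.101).

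**Figure D5:**
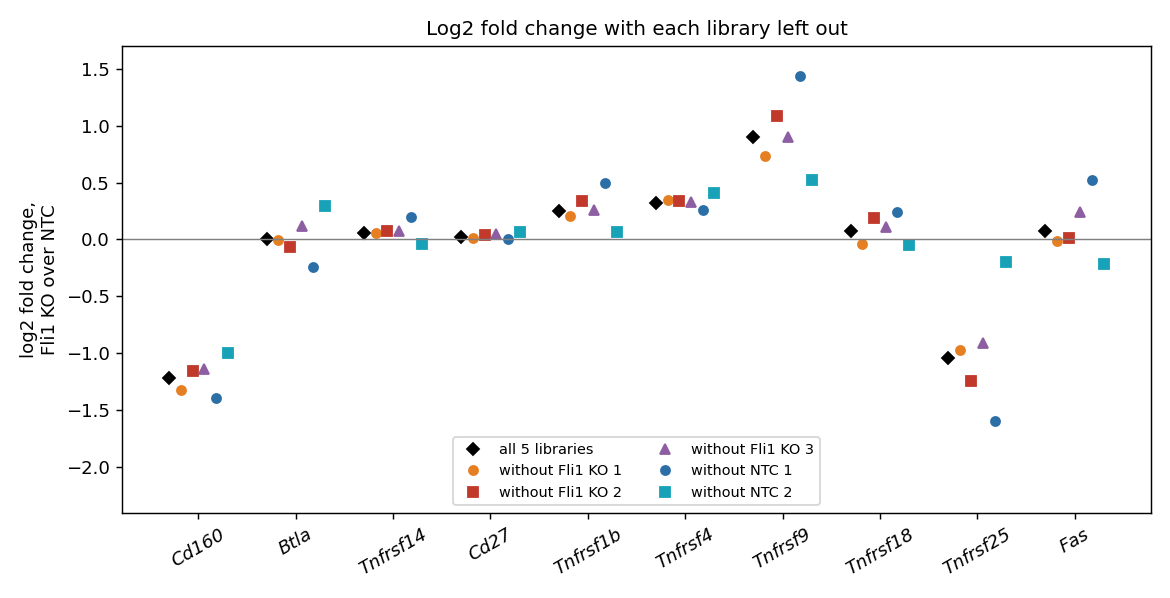
Log2 fold change of Fli1 KO over NTC for each of the 10 genes with all 5 libraries (black) and with each library left out in turn (coloured). Cd160 stays between −1.39 and −0.999, whereas Tnfrsf9 moves between 0.52 and 1.43 and Tnfrsf25 between −1.60 and −0.20 according to which NTC library is left out.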

How the data were processed

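RNA of splenic NK cells was measured in 3 Fli1 KO and 2 NTC libraries. Per the labels' protocols, libraries were made from 10 ng of RNA with an enrichment (probe capture) kit. Per the submitters' processing notes, FastQC 0.12.0, Trimmomatic 0.39, STAR 2.7.11 and mm10 were used; a counter and strand setting were not given in the sources used here. Files the authors deposited hold whole-number counts per Ensembl ID, not normalized. Symbols were found for 52073 of 56691 IDs. Coordinates and exon lengths are from GENCODE M21 (GRCm38, also called mm10), upstream sequences from RefSeq (GRCm38.p6), where all 10 genes matched.

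Genes passing filterByExpr (minimum 10 counts) were scaled with TMM and fitted with edgeR 4.0.16 (robust quasi-likelihood, R 4.3.3), with Benjamini-Hochberg adjustment over 30580 genes; the common biological coefficient of variation was 0.120. The fit was tested on simulated data. Alternatives were other scalings and filters, each library left out, DESeq2 1.42.0, limma-voom (limma 3.58.1) and a block for replicate numbers. Members and lists were chosen with earlier results of these data known. Named are all 10 genes, called genes of 4 related lists with up to 3 further genes each by p, the 5 genes nearest Cd160 (mean of at least 5 CPM, prior count 2), and chromosomal neighbours; Lta, Cd70, Grb2, Tnfsf10 and the other markers were named outside this rule, after their values were seen.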

Additional observations from a re-analysis of the deposited data

How the results depend on the processing

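Of the 13 alternatives, all kept Cd160 lower and past the threshold (log2 fold change −1.39 to −0.999), as they did Tnfaip3 higher. Genes called higher and lower among all tested, 140 and 27 with all 5 libraries, numbered 92 and 71 with library size alone, 239 and 56 with no filter, and 46 to 703 and 3 to 174 with 1 library left out. Of the 10 receptor genes, 0 to 1 were then called higher and 1 to 2 lower; the additions, Tnfrsf9 and Tnfrsf25, came without NTC 1. The replicate block gave 728 higher and 193 lower calls overall and 1 higher and 2 lower receptor genes, with Tnfrsf9 at 0.91, Tnfrsf25 at −0.93 and Cd160 at −1.15. It leaves 1 residual degree of freedom. The labels do not say that a number pairs libraries, and only 2 numbers are shared, so the numbers are not taken as pairs. Correlations of deviations from the group means over 17302 genes cannot decide this, since deviations of 2 NTC libraries are equal and opposite. They were 0.199 and 0.350 for same-numbered libraries. For Fli1 KO 3, which has no same-numbered control, they were 0.190 with NTC 1 and −0.190 with NTC 2. Signs of 3 BTLA effectors turned: with 1 library left out Ptpn6 ran from −0.445 to 0.18, Ptpn11 from −0.0603 to 0.297 and Grb2 from −0.0959 to 0.280 (lowest without NTC 2, highest without NTC 1), and with library size alone Ptpn11 was at −0.0376 and Grb2 at −0.0684. Why these values moved was not tested. Depth limits Btla, Fas, Tnfrsf4 and Tnfrsf25 most, with 18 to 73 counts per library. Leaving out an NTC library leaves 1, whose spread is assumed to be like that of Fli1 KO.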

Other observations

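Of the 10 genes, 6 lie on chromosome 4 (Tnfrsf1b, Tnfrsf9, Tnfrsf25, Tnfrsf14, Tnfrsf4 and Tnfrsf18), within a stretch of 10.8 Mb that holds 162 protein-coding genes. Tnfrsf4 and Tnfrsf18 are direct neighbours, 9551 bases apart, yet Tnfrsf18 was at 40.6 CPM per kb and Tnfrsf4 at 4.17 CPM per kb. Tnfrsf1b, at 42.6 CPM per kb, lies beside Tnfrsf8, the gene of CD30, which was at background (0.956 times).

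The genes next to the 10 on their chromosomes did not pass the threshold. Of 18 protein-coding neighbours edgeR called 0 (2 higher and 0 lower at an unadjusted p under 0.05, and 0 by DESeq2 and by limma-voom; the lowest edgeR adjusted p was 0.516). Next to Cd160, Rnf115, a ubiquitin ligase gene, averaged 52.9 CPM in NTC and 55.0 CPM after editing (log2 fold change 0.06), and Pdzk1, near background, at 7.19 and 5.63 CPM (−0.36, edgeR adjusted p = 0.728). Next to Tnfrsf9, Park7, the gene of the oxidative stress protein DJ-1, starts 124 bases before the annotated Tnfrsf9 gene on the opposite strand. Park7 averaged 44.3 CPM in NTC and 58.2 CPM after editing (0.39, edgeR adjusted p = 0.516).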
